A study of Tachysurus vachellii with 6 samples.

Results

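The Rh ammonium transporter genes of the gill were read from the messenger RNA of hybrid yellow catfish, bred from Tachysurus fulvidraco females and Pseudobagrus vachellii males. Hypoxia fish spent 96 h in water with 1.5 mg/L dissolved oxygen, and the controls, the normoxia fish, spent as long at 6.5 mg/L. All fish were first acclimated to well-oxygenated water and were fasted before the trial. Each group had 9 fish, and every library pooled the RNA of 3 of them, so there were 3 libraries of hypoxia and 3 of normoxia. The sources used here do not say how fish were spread over tanks, so p-values describe the spread between pools. The members were all rows of the deposited table with the symbol rhag, rhbg or rhcg or with a description as an Rh type ammonium transporter. This found 5 of 28288 genes, of which 3 had a symbol and all 5 had such a description. All 5 were abundant enough to be tested, among 15312 genes with at least 1 FPKM in at least 3 libraries. FPKM is the deposited read count scaled to transcript length and library total.

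Rh proteins are membrane channels related to the ammonium transporters of bacteria and plants, and they let ammonia gas pass down its partial pressure gradient. Fish excrete most of their nitrogen as ammonia across the gill. In gills studied in pufferfish, Rhag lies in the pillar cells that line the blood spaces and Rhbg in the basolateral membrane of surface cells. The Rhcg proteins lie in apical membranes there, not all in the same cells as Rhbg. In mammals RHAG is known from the red cell membrane. Acid put out at the apical surface by the proton pump or by sodium/proton exchange traps ammonia as ammonium outside the cell.

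In hypoxia 1 of the 5 genes passed the test: rhag, the type A gene, fell by 0.89 ± 0.20 (SE) on the log2 scale, to 29.2 ± 2.95 FPKM in hypoxia against 60.7 ± 12.6 FPKM in normoxia (SD, n = 3 libraries each). The type A-like gene LOC113655264 had as large a difference and did not pass. The most abundant members, rhbg and the type C 2-like gene LOC113652421, and the type C gene rhcg had values on either side of 0 with intervals that include 0. Over all genes tested 9.54% were called by the same test, namely 5.39% higher and 4.15% lower, and with 5 genes, 1 lower and 0 higher calls cannot be told from that background. The call of rhag rested on all 6 libraries, as given below.

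The genes lie on 5 scaffolds, with coordinates as in the deposited table, and the sources used here do not name their genome build. The rhbg gene lies on the plus strand of scaffold NW_020847794.1 from 13807836 to 13815236, and LOC113652421 on the plus strand of NW_020847764.1 from 3256082 to 3260550. The rhcg gene lies on the minus strand of NW_020848036.1 from 2849804 to 2859967. The rhag gene lies on the plus strand of NW_020847971.1 from 1814348 to 1826232, and LOC113655264 on the minus strand of NW_020847968.1 from 4925328 to 4932229. Exons and UTRs are not marked in the table, and no other annotated row overlapped any of the 5. The transcript lengths implied by counts and FPKM ran from 1713 bases for LOC113655264 to 2443 bases for rhcg. All 5 carried the ontology terms ammonium transmembrane transport and nitrogen utilization in the table. The term basolateral plasma membrane was given to rhbg alone and urea transport to rhag alone. The descriptions come from similar channel catfish proteins, so for the LOC genes they mark a likeness and not an identity.

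LOC113655264 had close neighbours: tmem50a ended 737 bases before it and maco1 began 1765 bases after it, both on the plus strand. In the human genome the Rh blood group genes RHD and RHCE lie beside TMEM50A and MACO1. Neither neighbour was called, with log2 differences of -0.14 ± 0.13 for tmem50a and -0.23 ± 0.17 for maco1 (SE, edgeR adjusted p = 0.510 and 0.402). Of the immediate neighbours of the other Rh genes 3 were tested and none was called. They were fes before LOC113652421 (-0.39 ± 0.17, edgeR adjusted p = 0.170), gdpgp1 after rhcg (-0.22 ± 0.35, edgeR adjusted p = 0.713) and LOC113655564 after rhag (0.08 ± 0.23, edgeR adjusted p = 0.850).

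The libraries had total counts of 44762764 to 54578326 in hypoxia and 46885400 to 55016223 in normoxia. The 5 genes together held 0.184% to 0.328% of the counts in hypoxia libraries and 0.177% to 0.303% in normoxia libraries. The smallest count of any member was 300, for LOC113655264 in hypoxia replicate 1, so the spread between pools and not counting set the precision for the others. Changes were fitted relative to the TMM centre, a scaling that matches the bulk of genes between libraries, whereas FPKM are printed as deposited. With library totals alone in place of TMM the median over all genes was -0.20 in place of -0.04 (log2), and 366 genes were higher and 798 lower, against 825 higher and 636 lower with TMM. Hypoxia replicate 1 had the lowest TMM factor, 0.869. Gill identity was checked on gcm2, a transcription factor gene of gill and parathyroid, which was at 77.8 ± 11.3 FPKM in hypoxia and 76.7 ± 8.31 FPKM in normoxia (SD, n = 3 each).

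**Figure D1:**
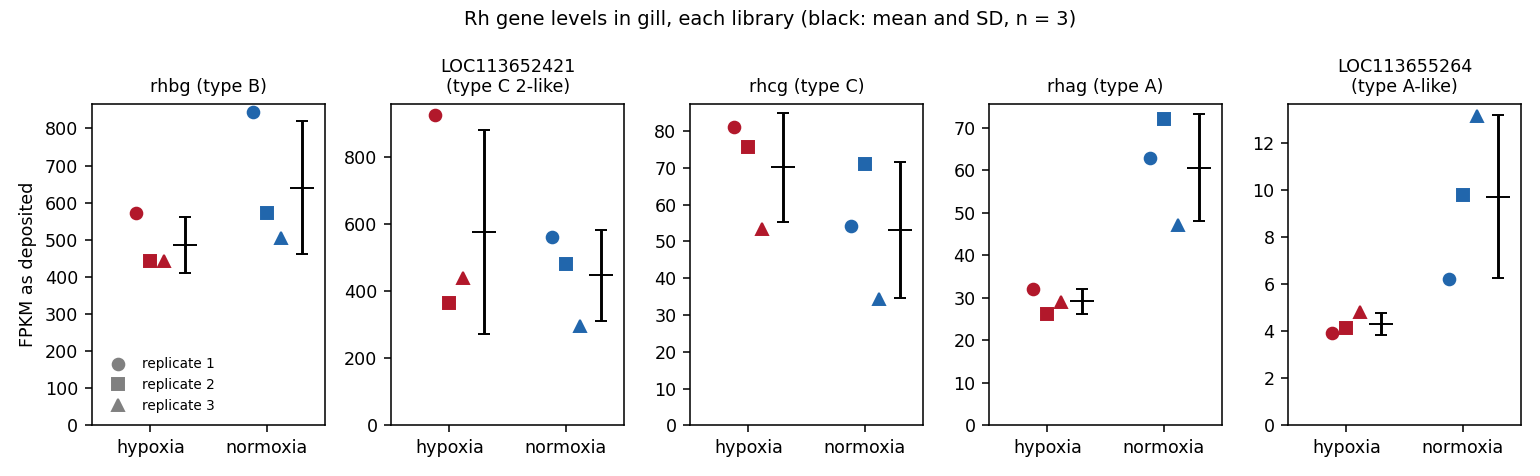
FPKM of the 5 Rh genes in each library, with hypoxia left of normoxia, a marker shape for each replicate number, and the mean and SD of 3 libraries in black; each panel has its own linear axis from 0. The groups are apart for rhag and LOC113655264 and overlap for the other 3 genes, and hypoxia replicate 1 is the highest library for LOC113652421 at 925 FPKM.

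The type B gene rhbg, of the kind placed in the basolateral membrane in pufferfish gill, was at 572, 444 and 441 FPKM in hypoxia replicates 1, 2 and 3, against 844, 572 and 505 FPKM in normoxia replicates 1, 2 and 3. Hypoxia replicates 2 and 3 lay below all normoxia libraries and hypoxia replicate 1 within their range. It ranked 188 of all genes by mean FPKM in hypoxia and 146 in normoxia. The log2 difference was -0.23 ± 0.27 (SE), with a 95% interval of -0.87 to 0.41 (edgeR adjusted p = 0.605). The sign rested on normoxia replicate 1, the highest library, since without it the difference was 0.07.

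The type C 2-like gene LOC113652421 is described as like one of the Rhcg proteins, which are apical in pufferfish gill. It was at 925, 365 and 439 FPKM in hypoxia replicates 1, 2 and 3, against 562, 482 and 296 FPKM in normoxia replicates 1, 2 and 3. Hypoxia replicate 1 was far above the other 5 libraries, and the other hypoxia libraries lay within the normoxia range. The coefficient of variation was 52.8% in hypoxia, the widest of the 5 genes in that group, and 30.5% in normoxia. The log2 difference was 0.56 ± 0.44 (SE), with a 95% interval of -0.49 to 1.60 (edgeR adjusted p = 0.433), and it was -0.06 without hypoxia replicate 1.

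The type C gene rhcg, also of the apical kind, was at 81.2, 75.7 and 53.4 FPKM in hypoxia replicates 1, 2 and 3, against 54.1, 71.1 and 34.3 FPKM in normoxia replicates 1, 2 and 3. Hypoxia replicates 1 and 2 lay above all normoxia libraries and hypoxia replicate 3 lay within their range. The log2 difference was 0.58 ± 0.32 (SE), with a 95% interval of -0.17 to 1.33 (edgeR adjusted p = 0.261). It was above 0 in each of the 6 fits without 1 library, with values of 0.34 to 0.83, the lowest without normoxia replicate 3, and passed in none of them.

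The type A gene rhag was at 32.2, 26.3 and 29.0 FPKM in hypoxia replicates 1, 2 and 3, against 62.8, 72.1 and 47.1 FPKM in normoxia replicates 1, 2 and 3. All hypoxia libraries lay below all normoxia libraries, also with TMM scaling. The change of -0.89 ± 0.20 is a level of 0.540 of that in normoxia, with a 95% interval of the log2 change of -1.36 to -0.41 (edgeR adjusted p = 0.0418). With 1 library left out the direction stayed and the call was lost each time, with an edgeR adjusted p of 0.0553 to 0.127, the highest without normoxia replicate 2. It was also lost without a filter on low values (edgeR adjusted p = 0.0630) and with a correction for transcript length (edgeR adjusted p = 0.0513).

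The type A-like gene LOC113655264 was the least abundant member, at 3.92, 4.13 and 4.82 FPKM in hypoxia replicates 1, 2 and 3, against 6.23, 9.80 and 13.2 FPKM in normoxia replicates 1, 2 and 3. The groups did not overlap here either, and the normoxia libraries were spread more widely than the hypoxia libraries. The log2 difference was -1.02 ± 0.27 (SE), with a 95% interval of -1.65 to -0.38 (edgeR adjusted p = 0.0583). It passed in 3 of 15 alternatives: without normoxia replicate 1 (edgeR adjusted p = 0.0400), with a stricter filter on low values (edgeR adjusted p = 0.0425) and in DESeq2 (adjusted p = 0.00882). Hypoxia and normoxia libraries were apart in FPKM for 2 of the 5 Rh genes, both lower in hypoxia, beside 37.3% of all genes tested, 25.9% in that direction.

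**Figure D2:**
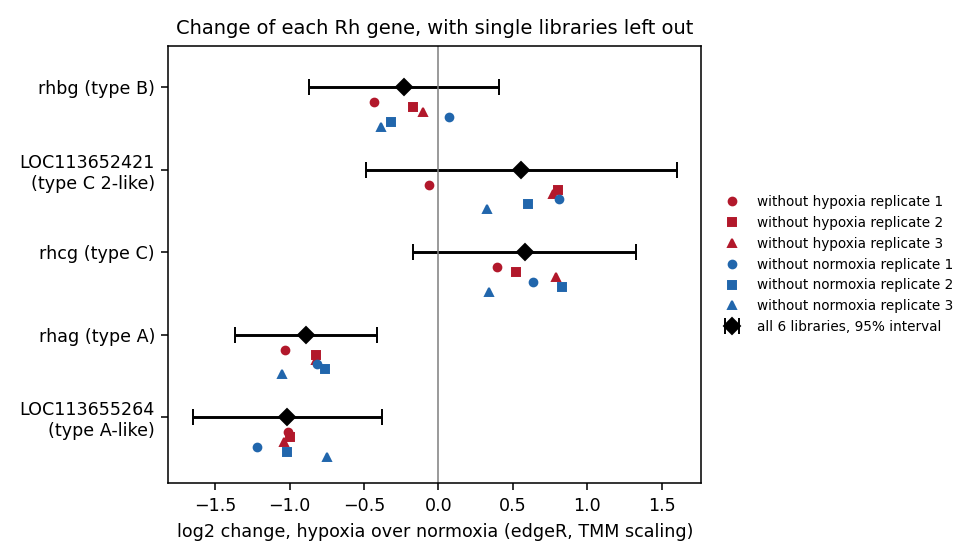
Log2 change of each Rh gene, hypoxia over normoxia, by edgeR with TMM scaling: black diamonds with bars are all 6 libraries with the 95% interval, and coloured symbols below them the fits with 1 library left out. The type A gene rhag stays below 0 in every fit, from -1.05 to -0.76, as does the type A-like gene LOC113655264, from -1.22 to -0.75. In contrast, rhbg and LOC113652421 each cross 0 in 1 fit.

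The order of the levels, on the FPKM scale that allows genes to be compared, had rhbg and LOC113652421 on top and LOC113655264 last in both groups. In hypoxia LOC113652421, at 576 ± 304 FPKM, and rhbg, at 486 ± 74.7 FPKM, overlapped, as did rhbg at 640 ± 180 and LOC113652421 at 447 ± 136 FPKM in normoxia. Below them, in hypoxia, rhcg at 70.1 ± 14.7 FPKM was above rhag at 29.2 ± 2.95 FPKM with no overlap between libraries. In normoxia rhag at 60.7 ± 12.6 and rhcg at 53.2 ± 18.4 FPKM overlapped. LOC113655264 had no overlap with the gene above it, at 4.29 ± 0.473 FPKM in hypoxia and 9.73 ± 3.46 FPKM in normoxia.

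Within each library the ratio of rhcg to rhag put the groups apart. It was 2.52, 2.88 and 1.84 in hypoxia replicates 1, 2 and 3, against 0.860, 0.987 and 0.727 in normoxia replicates 1, 2 and 3. The type C gene rhcg was thus above the type A gene rhag in 3 of 3 hypoxia libraries and below it in 3 of 3 normoxia libraries. The mean log2 ratio was higher by 1.48 in hypoxia, with SDs of 0.332 in hypoxia and 0.221 in normoxia. A two-sided exact permutation test gave p = 0.1, the smallest that 3 against 3 libraries can give, and 0.25 after Benjamini-Hochberg adjustment over the 10 pairs of Rh genes. The ratios of rhbg to rhag (15.2 to 17.8 in hypoxia and 7.94 to 13.4 in normoxia), LOC113652421 to rhag (13.9 to 28.7 and 6.29 to 8.94) and rhcg to LOC113655264 (11.1 to 20.7 and 2.61 to 8.68) were also apart, with the same exact p = 0.1. Every pair that was apart holds rhag or LOC113655264, whose own FPKM did not overlap between the groups, so these ratios are not a separate result. The share of such pairs over all genes was not computed. In the other pairs the ratios overlapped, among them rhag to LOC113655264, at 6.02 to 8.21 in hypoxia and 3.58 to 10.1 in normoxia.

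**Figure D3:**
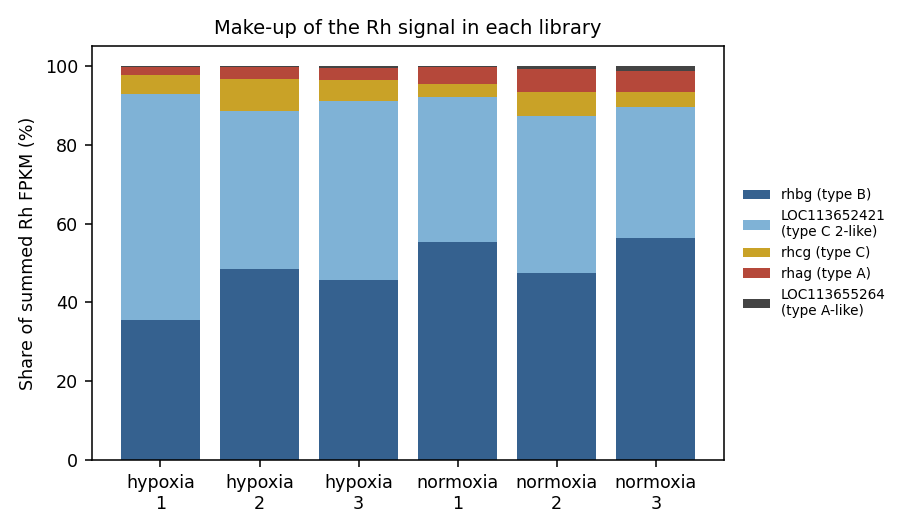
Share of each Rh gene in the summed FPKM of the 5 genes, in percent, for the 3 hypoxia libraries on the left and the 3 normoxia libraries on the right. rhbg and LOC113652421 fill most of every bar, LOC113652421 is the larger in hypoxia replicate 1 at 57.3%, and rhag holds a mean of 2.50% in hypoxia and 5.01% in normoxia.

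The summed FPKM of the 5 genes were 1615, 915 and 968 in hypoxia replicates 1, 2 and 3, and 1529, 1207 and 896 in normoxia replicates 1, 2 and 3, and the groups overlapped. The share of rhbg in that sum was 35.4% to 48.5% in hypoxia and 47.4% to 56.3% in normoxia, and that of LOC113652421 was 39.9% to 57.3% and 33.1% to 39.9%. The share of rhag did not overlap between the groups, as the plot of shares shows. These shares depend on each other, so a change in an abundant gene moves those of the rest.

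Lists of marker and pathway genes are read against all genes tested, of which 9.54% were called by edgeR, 30.3% had an unadjusted p under 0.05, and 21.8% were called by DESeq2 and 8.92% by limma. Red cell genes were set beside rhag and the type A-like gene LOC113655264, since bulk RNA cannot tell fewer cells of a type from less RNA per cell. Of 14 tested erythrocyte markers 1 fell, beside 4.15% of all genes tested. It was hemogen (hemgn), a nuclear regulator of red cell development, at 13.7 ± 0.825 FPKM in hypoxia and 38.4 ± 14.7 FPKM in normoxia (log2 change -1.30 ± 0.30, edgeR adjusted p = 0.0422). That call was kept without normoxia replicate 1 and lost when any other library was left out. An unadjusted p under 0.05 was found for 3 of the 14 markers, and DESeq2 and limma called 1 each. The markers had a median log2 change of -0.20, beside -0.04 over all genes, and 11 were below 0. The 2 most abundant, the hemoglobin subunit genes LOC113656777 and LOC113656766, had log2 differences of 0.02 ± 0.47, of either sign under other settings, and -0.26 ± 0.26, and hemoglobin genes can share reads. The summed FPKM of the 17 listed genes was 7434 to 10075 in hypoxia and 6901 to 14912 in normoxia. No listed gene was at 0 in all libraries, and the 3 that were not tested were 2 hemoglobin-like genes and an erythrocytic spectrin beta-like gene.

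Per 1000 FPKM of 11 hemoglobin genes, rhag was at 4.41, 2.70 and 2.91 FPKM in hypoxia replicates 1, 2 and 3, and at 9.27, 6.18 and 3.20 FPKM in normoxia replicates 1, 2 and 3, so the groups overlapped. LOC113655264 was at 0.537, 0.423 and 0.484 FPKM on the same scale in hypoxia, against 0.918, 0.840 and 0.893 FPKM in normoxia, with no overlap. Per 1000 FPKM of 2 genes like band 3, the anion exchanger of the red cell membrane, rhag was at 347, 335 and 405 FPKM in hypoxia replicates 1, 2 and 3, against 907, 878 and 731 FPKM in normoxia replicates 1, 2 and 3. On that scale LOC113655264 was at 42.3 to 67.2 FPKM in hypoxia and 89.9 to 204 FPKM in normoxia, and neither gene overlapped between the groups. Most of the band 3 sum came from LOC113662208, with means of 65.9 FPKM in hypoxia and 53.5 FPKM in normoxia. This gene was at 83.7, 63.0 and 51.0 FPKM in hypoxia replicates 1, 2 and 3. In normoxia replicates 1, 2 and 3 LOC113662208 was at 56.1, 63.9 and 40.3 FPKM. Its log2 difference was 0.48 ± 0.28, whereas 11 of the 14 tested erythrocyte markers were below 0. The other band 3-like gene, LOC113638122, had -0.15 ± 0.29, and neither was called. It was at 9.12, 15.6 and 20.8 FPKM in hypoxia replicates 1, 2 and 3, and at 13.2, 18.1 and 24.2 FPKM in normoxia. LOC113638122 and the hemoglobin sum were lowest in replicate 1 of both groups, whereas LOC113662208 was lowest in replicate 3. Ratios to LOC113638122 alone were not computed, and whether LOC113662208 marks red cells here was not tested. The ratios of both rhag and LOC113655264 to hemogen, to the erythroid aminolevulinate synthase and to erythrocytic spectrin overlapped between the groups. Per 1000 FPKM of hemogen LOC113655264 was at 278, 288 and 377 FPKM in hypoxia replicates 1, 2 and 3, and at 285, 226 and 263 FPKM in normoxia replicates 1, 2 and 3. The part of red cell content in either difference was not tested beyond these ratios.

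**Figure D4:**
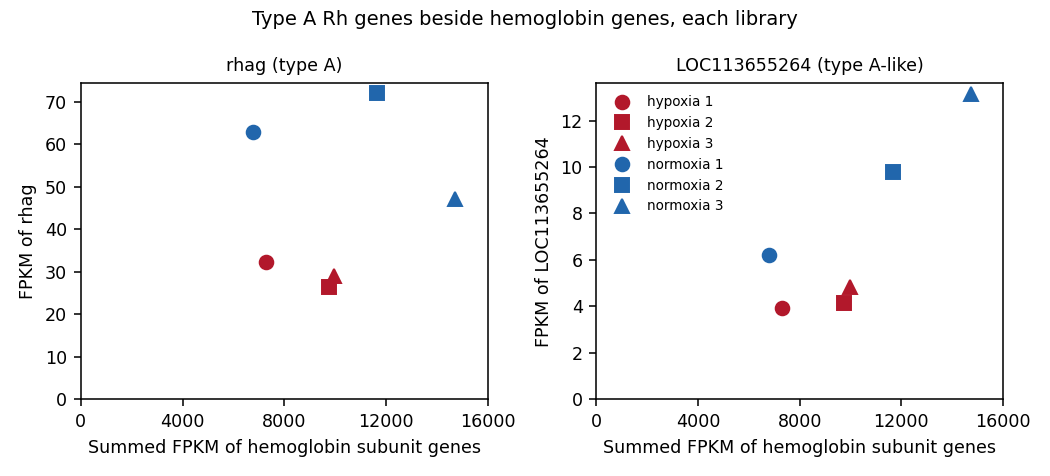
FPKM of rhag (left) and LOC113655264 (right) against the summed FPKM of 11 hemoglobin subunit genes, 1 point per library, hypoxia red and normoxia blue. Hypoxia libraries lie below normoxia libraries in both panels. Hemoglobin sums are close in hypoxia replicate 1 and normoxia replicate 1, at 7299 and 6782 FPKM. The other sums are 9750 and 9965 FPKM in hypoxia and 11665 and 14733 FPKM in normoxia.

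Of 6 tested markers of endothelium and pillar cells none was called by edgeR, none had an unadjusted p under 0.05, and DESeq2 and limma called none. The 3 most abundant were the cadherin-5 gene LOC113651453, an adhesion protein between endothelial cells, with a log2 difference of -0.11 ± 0.30 and either sign with a library left out, the endothelin-1 receptor gene LOC113663328 (0.18 ± 0.25), and kdr, a receptor of vascular endothelial growth factor (-0.19 ± 0.21). The lowest value was that of tie1 (-0.84 ± 0.41, edgeR adjusted p = 0.217), at 0.701 to 2.55 FPKM in hypoxia and 3.29 to 3.66 FPKM in normoxia. The median of the 6 markers was 0.02, with a summed FPKM of 15.3 to 22.7 in hypoxia and 19.2 to 23.8 in normoxia for the 7 listed genes. Of 14 tested ionocyte markers none was called by edgeR, 3 had an unadjusted p under 0.05, 2 were called by DESeq2 and 0 by limma, and each of these counts is a smaller share than that over all genes. The median was 0.37 and 12 were above 0. Among these were the sodium/potassium ATPase alpha-1-like genes LOC113649014 (0.47 ± 0.32) and LOC113649015 (0.37 ± 0.32) and further alpha-1 genes. The 2 below 0 were the sodium/hydrogen exchanger 2-like gene LOC113654582 (-1.11 ± 0.33) and slc12a2 (-0.47 ± 0.18). Both were among the 3 with an unadjusted p under 0.05, and of the 2 DESeq2 calls 1 was higher and 1 lower. With library totals the list's median was 0.20, beside -0.20 over all genes. The list's summed FPKM was 721 to 935 in hypoxia and 551 to 810 in normoxia, highest in hypoxia replicate 1, the library that was also highest for LOC113652421 and rhcg. The defining ionocyte gene foxi3 was at 0 counts in all 6 libraries and foxi1 was detected, at 13.8 ± 1.89 FPKM in hypoxia and 11.9 ± 3.89 FPKM in normoxia (SD, n = 3 each). A forkhead box I1-like gene, LOC113644486, was more abundant, at 52.8 ± 3.05 FPKM in hypoxia and 45.1 ± 9.52 FPKM in normoxia (SD, n = 3 each).

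Markers of leukocytes, mucous cells, other epithelium and muscle were read in the same way. Of 8 tested leukocyte markers 2 fell, beside 4.15% of all genes tested, the macrophage-expressed gene 1-like gene LOC113656273 (-0.92 ± 0.12, edgeR adjusted p = 0.0132) and the B cell receptor component cd79a (-1.49 ± 0.31, edgeR adjusted p = 0.0352). The first call was lost without normoxia replicate 3 and, among the fits without 1 library, the second was kept only without normoxia replicate 1. An unadjusted p under 0.05 was found for 5 of the 8 (30.3% of all genes). DESeq2 called 4 (21.8% of all genes) and limma 3 (8.92% of all genes). All 8 leukocyte markers were below 0, with a median of -0.53. The list's summed FPKM was 4311 to 4952 in hypoxia and 6769 to 8237 in normoxia, most of it from the class II histocompatibility gamma chain gene LOC113654954 (-0.50 ± 0.21, not called). Of 11 tested mucous cell markers none was called by edgeR, 5 had an unadjusted p under 0.05 (30.3% of all genes), 4 were called by DESeq2 (21.8% of all genes) and 0 by limma. All 11 were below 0 with a median of -0.997, and the secretory cell gene agr2 had -1.22 ± 0.39 and the mucin-5AC-like genes LOC113641412 and LOC113653879 had -1.39 ± 0.47 and -0.67 ± 0.49. The list's summed FPKM was 187 to 380 in hypoxia and 471 to 866 in normoxia. Of 10 tested markers of pavement cells and other epithelium none was called by edgeR, 2 had an unadjusted p under 0.05, 2 were called by DESeq2 and 1 by limma, with a median of 0.16 and a summed FPKM of 5301 to 7936 in hypoxia and 6494 to 9548 in normoxia. Of 7 tested striated muscle markers none was called by edgeR, DESeq2 or limma and none had an unadjusted p under 0.05, with summed FPKM of 6.03 to 279 in hypoxia and 1.60 to 260 in normoxia. The part of these cells in the values of the Rh genes was not tested.

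**Figure D5:**
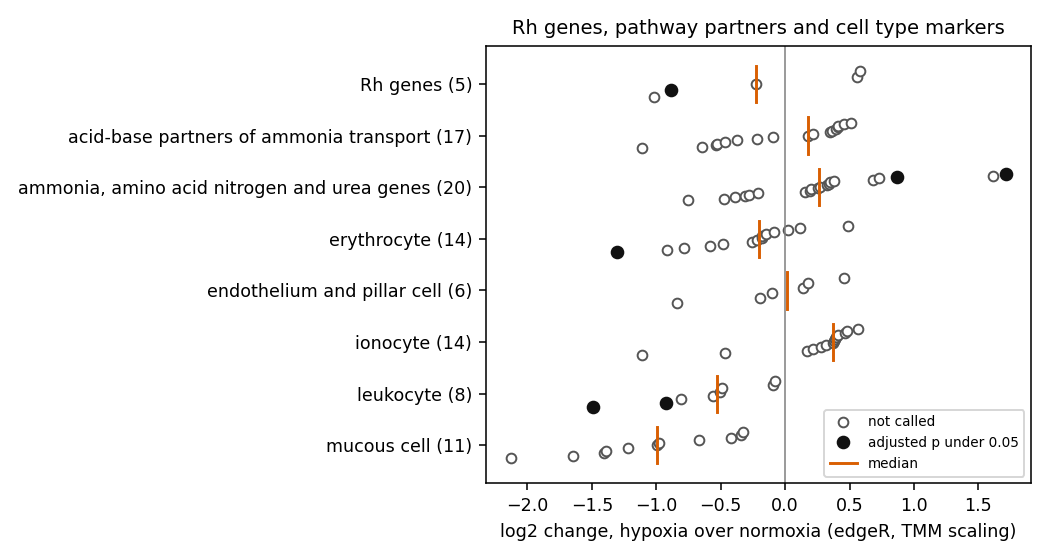
Log2 change, hypoxia over normoxia, of each tested Rh gene and each tested gene of the lists shown, 1 point per gene and list, with the number of genes in brackets. Filled points passed at an adjusted p under 0.05 and orange bars are medians. Some genes, among them ca2 and atp6v1a, are in both the acid-base and the ionocyte list and are drawn in both rows. Leukocyte and mucous cell markers all lie below 0, 12 of 14 ionocyte markers lie above 0, and rhag is the filled point among the Rh genes.

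The acid-base partners of ammonia transport, namely proton pump, exchanger, bicarbonate and chloride cotransporter, carbonic anhydrase and aquaporin genes, gave no call among 17 tested. An unadjusted p under 0.05 was found for 4 (30.3% of all genes), and DESeq2 called 2 (21.8% of all genes) and limma 0. Their median log2 difference was 0.18, with 9 above 0. That median was 0.0085 with library totals and -0.0038 in limma, beside -0.20 and -0.17 over all genes. The most abundant was the aquaporin-3-like gene LOC113637555, of a water channel that also passes small solutes, at 231, 315 and 319 FPKM in hypoxia replicates 1, 2 and 3, against 629, 331 and 421 FPKM in normoxia replicates 1, 2 and 3. Its groups did not overlap on FPKM as deposited, but the log2 difference of -0.53 ± 0.27 did not pass (edgeR adjusted p = 0.226). Carbonic anhydrase 2 (ca2), which forms the protons that turn ammonia into ammonium, had a log2 difference of 0.21 ± 0.21, which was -0.03 without hypoxia replicate 1. The membrane-bound carbonic anhydrase 4-like gene LOC113653580 had 0.46 ± 0.42. The largest difference of the list was that of the sodium/hydrogen exchanger 2-like gene LOC113654582, at -1.11 ± 0.33 (edgeR adjusted p = 0.0738). The sodium/hydrogen exchanger 3-like gene LOC113641259 had 0.39 ± 0.29 and the proton pump gene atp6v1a 0.41 ± 0.23. The genes LOC113654582, LOC113641259, atp6v1a, ca2 and slc12a2 are also in the ionocyte list, so these lists are not separate.

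The genes of ammonia, amino acid nitrogen and urea metabolism numbered 20 tested, among them 2 urea transporter 2-like genes. By edgeR 2 rose and none fell, beside 5.39% of all genes higher and 4.15% lower. An unadjusted p under 0.05 was found for 8 (30.3% of all genes). DESeq2 called 6 (21.8% of all genes), 4 higher and 2 lower. Limma called 1 higher and 1 lower (8.92% of all genes), as did edgeR with library totals. Of the 20 values 14 were above 0, with a median of 0.26 (log2). That median was 0.05 with library totals and 0.04 in limma, beside -0.20 and -0.17 over all genes. Arginase 2 (arg2), which splits arginine into urea and ornithine, was at 124, 61.9 and 97.7 FPKM in hypoxia replicates 1, 2 and 3, against 33.6, 30.3 and 33.4 FPKM in normoxia replicates 1, 2 and 3. The hypoxia libraries were all above the normoxia libraries, with a log2 change of 1.72 ± 0.27 (edgeR adjusted p = 0.0226), and the call was lost without normoxia replicate 2 or 3. Asparagine synthetase (asns), which uses glutamine as its nitrogen donor, was at 26.3, 28.1 and 41.8 FPKM in hypoxia replicates 1, 2 and 3, against 21.2, 16.5 and 20.3 FPKM in normoxia replicates 1, 2 and 3. Its log2 change was 0.87 ± 0.18 (edgeR adjusted p = 0.0344), and the call was kept only without normoxia replicate 1 among the fits without 1 library and was lost with library totals alone (edgeR adjusted p = 0.0753). Carbamoyl-phosphate synthase (cps1), described as the ammonia form, was at 10.0 ± 4.49 FPKM in hypoxia and 3.61 ± 1.73 FPKM in normoxia (SD). Its log2 difference of 1.61 ± 0.40 did not pass (edgeR adjusted p = 0.0514). Nor did those of got2 (0.68 ± 0.18, edgeR adjusted p = 0.0553) and asl (-0.47 ± 0.13, edgeR adjusted p = 0.0590). The lowest value of the list was that of the AMP deaminase 3-like gene LOC113652450 (-0.75 ± 0.24, edgeR adjusted p = 0.0908). It was at 29.8, 46.7 and 40.6 FPKM in hypoxia replicates 1, 2 and 3, against 61.8, 59.1 and 99.0 FPKM in normoxia replicates 1, 2 and 3. The most abundant gene of the list, the glutamine synthetase-like gene LOC113642972, whose product fixes ammonia in glutamine, differed by -0.28 ± 0.22 on the log2 scale (edgeR adjusted p = 0.426).

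Rows named by a LOC number alone were left out of a search for genes with the pattern most like a member's. The closest of the other genes tested, by Pearson's r of log2(FPKM + 1) over the 6 libraries, are given as a description. For rhag they were shtn1 (r = 0.992), sfmbt2 (0.990) and slc40a1 (0.990), the iron exporter ferroportin, which was at 2.39, 2.10 and 2.62 FPKM in hypoxia replicates 1, 2 and 3, against 5.49, 6.06 and 4.08 FPKM in normoxia replicates 1, 2 and 3. For rhbg they were sh3bp2 (r = 0.985), dusp5 (0.980) and cpm (0.977), and for LOC113652421 dph3 (0.996), btbd9 (0.995) and cdk9 (0.982). With so many genes and 6 libraries that differ in treatment, high values are common, and these genes share libraries, scaling and treatment with the members.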

How the data were processed

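Gill RNA was reverse transcribed from poly(A) RNA and sequenced as Illumina paired reads, per the labels' protocols. Reads were trimmed with cutadapt 1.9 and aligned with HISAT, per the submitters' processing notes. No source used here names the counter, genome build, annotation or strand setting, so reads of near-identical or antisense genes may be shared, and whether a count is a read or a pair is not known. The deposited table holds whole-number counts per gene, not normalized, and FPKM computed by the authors, which list a count of 0 as 0.0001.

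The counts were fitted with edgeR 4.0.16 (R 4.3.3; quasi-likelihood test, TMM scaling, all 6 libraries, no covariate) for genes with at least 1 FPKM in at least 3 libraries. P-values were Benjamini-Hochberg adjusted over all 15312 genes tested, with calls at an adjusted p under 0.05. SEs are the log2 change over the root of F. The fit was tested on simulated data. Alternatives were other scalings, filters and tests (DESeq2 1.42.0, limma 3.58.1), a replicate block, a length correction and leaving out each library. Ratios of Rh genes were compared by exact permutation (scipy 1.17.1).

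The Rh genes and lists were chosen with earlier results of these data known. Named from each list were the called genes and, with fewer than 3 calls, up to 3 of the most abundant. The muscle list is given by counts alone and the pavement list by counts with tp63 and cldn7. Both this and the naming of some further list genes depart from that rule. No sequence is shown, since none was used here.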

Additional observations from a re-analysis of the deposited data

How the results depend on the processing

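The number of Rh genes called, 1 with all libraries, remained 1 with DESeq2 size factors, with library totals and with limma at both pseudocounts. It was 0 without a filter, with the length correction and with the replicate block, and 2 with the stricter filter (at least 5 FPKM) and in DESeq2. With 1 library left out it was 0 to 1. The direction of rhag, LOC113655264 and rhcg was the same in all 15 alternatives, and log2 values ran from -1.06 to -0.76 for rhag and from -1.22 to -0.75 for LOC113655264. The adjusted p of rhag ran from 0.00118 to 0.127, and it was called in 6 of 15. Leaving out 1 library gave -0.435 to 0.0703 for rhbg and -0.0609 to 0.81 for LOC113652421.

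Over all genes 1461 were called, against 862 without a filter, 3332 in DESeq2, 242 with the replicate block and 132 to 912 with 1 library left out. Genes higher in hypoxia were 56.5% of the calls, 31.4% with library totals, 35.1% and 36.8% with limma, and 67.9% with the length correction. Over all genes tested, libraries of the same replicate number did not deviate together (r = -0.05, 0.02 and -0.05), so the numbers were not read as pairs. With the replicate block rhag had an adjusted p of 0.0674 and rhcg one of 0.0998 (edgeR). The block took the SE of rhcg from 0.32 to 0.16 and that of rhbg from 0.27 to 0.15. By CPM, not scaled to length, rhcg stood above rhag in normoxia and 3 of 5 places were kept, and in hypoxia 5 of 5.

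The hemoglobin gene LOC113656777 had log2 values of -0.15 with library totals, -0.0587 with the stricter filter and -0.0844 with the length correction. With 1 library left out it ran from -0.36 to 0.40, LOC113651453 from -0.47 to 0.0738 and ca2 from -0.0254 to 0.33. With 3 pools a group, the spread between pools limits every Rh gene. The cause of these shifts was not tested.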
